A study of Homo sapiens with 8 samples.

Results

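In all, 10 genes for secreted angiogenic and vasoactive factors and their neuropilin co-receptors were followed in 786-O cells, a renal cell carcinoma (RCC) line that lacks functional von Hippel-Lindau (VHL) protein. The genes were VEGFA, VEGFB, VEGFC, PGF and ANGPT1 among the vascular growth factors, ADM, EDN1 and EDN2 among the vasoactive peptides, and NRP1 and NRP2 among the receptors. They were chosen by their symbols, as 10 of the 18417 genes with an unambiguous probe set on the array, and all 10 were found. The choice was made with earlier results of these data known. Shares and medians of the 10 beside those of all clusters are therefore descriptive only. Their 11 transcript clusters (the probe sets that stand for a gene) included 2 for NRP2, and each gene was read from its cluster with the highest mean over the 8 arrays. The 4 groups had 2 biological replicates each and were VHL+ cells, which carried a VHL expression vector, under hypoxia (1% O2, 24 h) and under normoxia, and VHL- cells, which were not transfected, under hypoxia and under normoxia. According to the study's methods the transfectants were stable bulk cultures. Since the VHL- cells on the arrays carried no vector, effects of VHL and of transfection and selection cannot be told apart. The arrays measured bulk RNA, in which fewer cells with a transcript and less of it per cell cannot be told apart.

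VHL is the subunit through which a ubiquitin ligase recognizes the α subunits of the hypoxia-inducible factors (HIF) in the presence of oxygen and sends them to degradation, and without it HIF stays active in normoxic RCC cells. HIF binds the letters ACGTG or GCGTG in DNA, and VEGFA, ADM and EDN1 are well-known HIF target genes. The VEGF ligands act on the receptor tyrosine kinases FLT1, KDR and FLT4 of endothelial cells, where the neuropilins serve as co-receptors and also bind class 3 semaphorins. Adrenomedullin relaxes vessels through the receptor CALCRL with a RAMP partner, whereas the endothelins are known as vasoconstrictors and bind the receptors EDNRA and EDNRB. Clear cell RCC is known as a highly vascular tumour with abundant VEGF-A.

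The labels were checked first. The log2 signal of VHL was 9.08 and 9.16 in VHL+ cells under hypoxia, against 8.23 and 8.51 in VHL- cells under hypoxia, and 8.85 and 8.86 in VHL+ cells under normoxia, against 8.24 and 8.43 in VHL- cells under normoxia. It was higher in VHL+ cells under hypoxia (log2 fold change 0.75, limma adjusted p = 0.00211) and under normoxia (0.52, adjusted p = 0.0398), although its call under normoxia was lost without any 1 of the 4 normoxic arrays or the VHL+ hypoxia arrays (2 of 8 omissions kept it). Its call under hypoxia was lost without either VHL+ hypoxia array (adjusted p = 0.0787 and 0.0729), and the log2 fold change was 0.48 after quantile normalization (adjusted p = 0.0407). HIF1A, which encodes an α subunit of HIF, was lower in VHL+ cells under hypoxia (log2 fold change -2.02, adjusted p = 4.56e-08) and normoxia (-1.95, adjusted p = 4.82e-08), and EPAS1, which encodes HIF2α, was lower under normoxia (-0.77, adjusted p = 0.0146, and lost without either VHL+ hypoxia array and after quantile normalization). The HIF target EGLN3 was also lower under normoxia (-0.81, adjusted p = 0.0029), a call likewise lost without either VHL+ hypoxia array. VHL acts on HIF α protein, so that the RNA values of HIF1A and EPAS1 do not by themselves check the labels. All 7 measured markers of renal epithelium or RCC lay above the median of every array, whereas 6 of 7 endothelial and all 4 leukocyte markers lay below it. Among fibroblast and pericyte markers 3 of 6 lay below every median, and the exceptions were CLDN5 (endothelial) and COL1A1, which lay above it on all arrays, and LUM and RGS5, which varied. The arrays' medians ran from 6.60 to 6.91, with the highest on replicate 1 of VHL+ cells under hypoxia. The median log2 fold change of all 33297 clusters was 0.16 for VHL+ vs. VHL- cells under hypoxia and between -0.12 and 0.09 in the other pairwise comparisons. Quantile normalization removed this shift and turned 3437 higher and 436 lower calls under hypoxia into 920 higher and 911 lower.

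Under normoxia, VHL+ cells had a lower signal than VHL- cells for 5 of the 10 genes and a higher one for none. The 5 were VEGFA, VEGFB and VEGFC, 3 ligands of the VEGF family, the vasodilator ADM and the co-receptor NRP2. Of all clusters 4.77% were called in this comparison, 2.69% lower and 2.07% higher. The median log2 fold change of the 10 genes was -0.76, beside -0.04 over all clusters. The sixth gene with an unadjusted p under 0.05, which 4525 of the 33297 clusters had, was EDN1. The remaining 4 genes, PGF, EDN2, NRP1 and ANGPT1, lay between -0.22 and 0.18.

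The main endothelial mitogen VEGFA had a log2 signal of 8.86 and 9.54 in VHL+ cells, against 10.95 and 10.43 in VHL- cells under normoxia. The arrays of the 2 groups did not overlap, although the VHL+ replicates lay 0.67 apart. VEGFA averaged 9.20 ± 0.48 in VHL+ cells and 10.69 ± 0.37 in VHL- cells (SD, n = 2 each), a 2.81-fold reduction (log2 fold change -1.49, SE 0.20, limma adjusted p = 0.000165). Without either VHL+ hypoxia array, which changes only the estimate of the spread, its adjusted p was 0.0501.

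VEGFC, the ligand of the lymphatic receptor FLT4, had a log2 signal of 7.78 and 8.03 in VHL+ cells, against 8.88 and 8.61 in VHL- cells. All 4 arrays were separated by group, and VEGFC was 1.79-fold lower in VHL+ cells (log2 fold change -0.84, SE 0.15, adjusted p = 0.0016). VEGFB, a ligand of FLT1, gave 7.84 and 7.60 in VHL+ cells, against 8.16 and 8.62 in VHL- cells. These groups did not overlap either, but the difference was the smallest of the 5 (log2 fold change -0.68, SE 0.18, adjusted p = 0.039). The VEGFB call was lost without either VHL+ hypoxia array, without replicate 2 of either normoxia group (adjusted p between 0.117 and 0.388 over these 4 omissions) and after quantile normalization (adjusted p = 0.113).

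ADM showed the largest reduction of the 10 genes. Its log2 signal was 7.51 and 8.08 in VHL+ cells, against 9.30 and 9.56 in VHL- cells, and it was 3.12-fold lower in VHL+ cells (log2 fold change -1.64, SE 0.18, adjusted p = 1.89e-05). NRP2, the neuropilin known from lymphatic endothelium, gave 8.27 and 8.83 in VHL+ cells, against 9.90 and 9.73 in VHL- cells. It was 2.40-fold lower (log2 fold change -1.26, SE 0.17, adjusted p = 0.000103). The other NRP2 cluster, with lower signals, gave 7.14 and 7.65 in VHL+ cells, against 9.06 and 8.71 in VHL- cells (log2 fold change -1.49, adjusted p = 1.78e-05). Both NRP2 clusters thus separated the groups in the same direction. The calls of ADM, VEGFC and NRP2 were kept in each of the 8 fits that left out 1 array and after quantile normalization. When the compared groups were fitted alone, ADM was the only gene of the 10 called, and VEGFC and NRP2 were not.

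Neither endothelin was called. EDN1, the main vasoconstrictor of the family, had a log2 signal of 6.54 and 6.91 in VHL+ cells, against 7.13 and 8.05 in VHL- cells. The groups did not overlap, yet the VHL- replicates lay 0.92 apart and the difference missed the threshold (log2 fold change -0.87, 95% interval -1.39 to -0.34, adjusted p = 0.0561). This difference was as large as that of VEGFC, and it passed with limma's trend and robust options (adjusted p = 0.0111) and in 4 of the 8 fits that left out 1 array. EDN2 gave 7.38 and 7.11 in VHL+ cells, against 6.98 and 7.14 in VHL- cells, and these values overlapped (log2 fold change 0.18, 95% interval -0.30 to 0.67, adjusted p = 1). Across the 10 genes, 6 were lower in both VHL+ arrays than in both VHL- arrays, an arrangement that 26.2% of all clusters had, and 0 of the 10 were higher in both, as against 14.2% of all clusters.

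**Figure D1:**
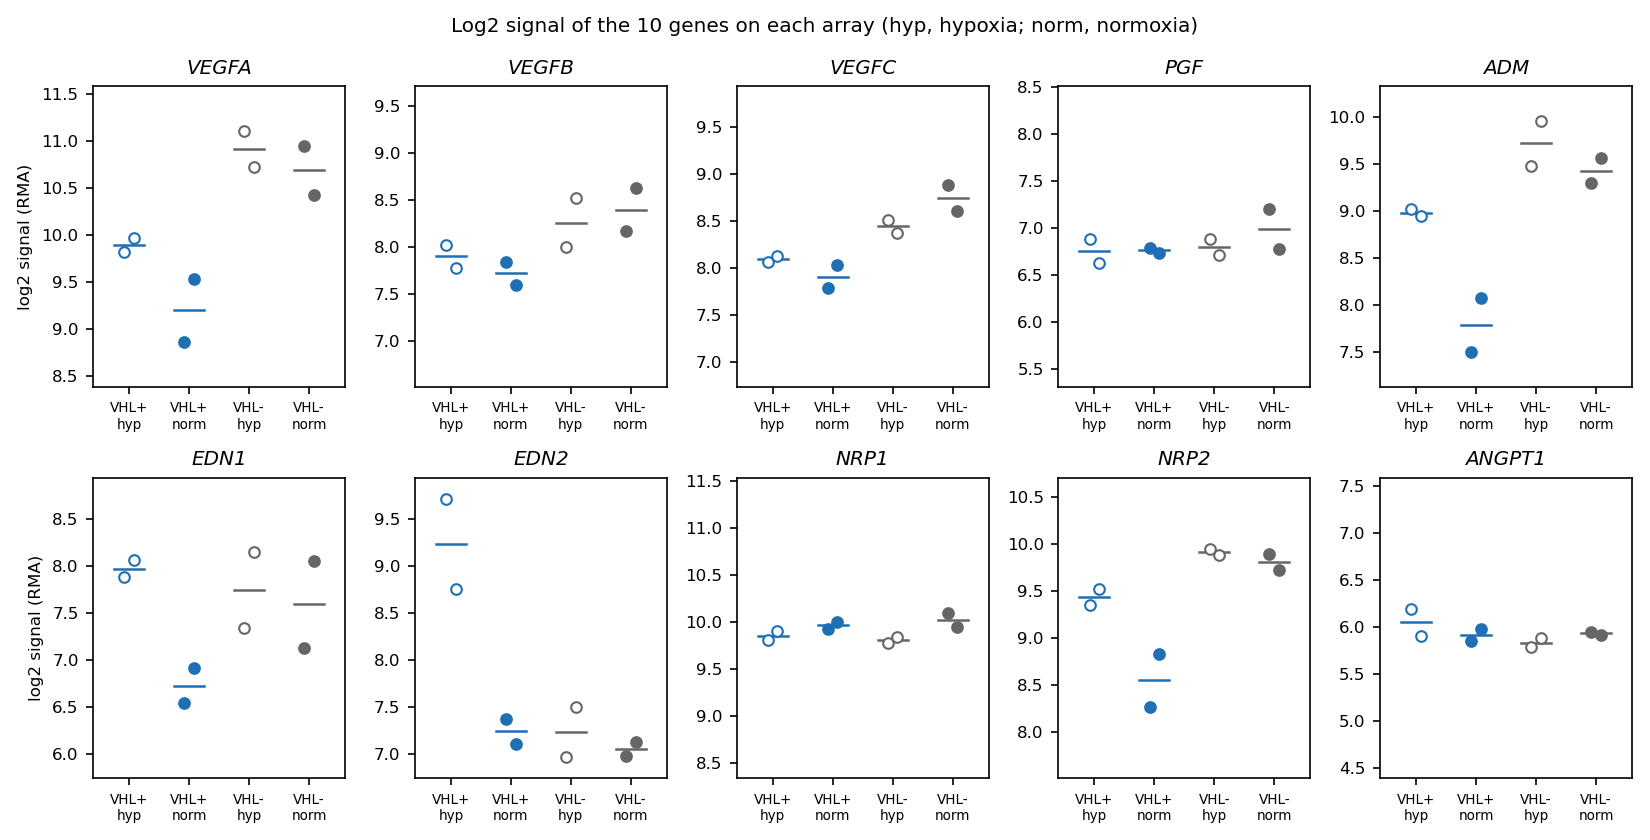
Log2 RMA signal (y axis) of each gene in each group (x axis, hyp for hypoxia and norm for normoxia), with 1 point per array, open under hypoxia and filled under normoxia, and a line at the mean of the 2 replicates. VHL+ arrays are blue and VHL- arrays grey. VEGFA, ADM and NRP2 lie lowest in VHL+ cells under normoxia, EDN2 is high only on the 2 VHL+ hypoxia arrays, and NRP1, PGF and ANGPT1 are nearly level.

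Under hypoxia, VHL+ cells had lower VEGFA and ADM and higher EDN2 than VHL- cells, and the other 7 genes did not pass the test. Of all clusters 1.31% were called lower and 10.3% higher in this comparison, so that the single higher gene stood against a larger background than the 2 lower ones. The 10 genes had a median log2 fold change of -0.20, beside 0.16 over all clusters.

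VEGFA had a log2 signal of 9.82 and 9.97 in VHL+ cells under hypoxia, against 11.11 and 10.73 in VHL- cells under hypoxia. It was 2.04-fold lower (log2 fold change -1.03, SE 0.20, adjusted p = 0.00307). ADM gave 9.03 and 8.95 in VHL+ cells, against 9.49 and 9.96 in VHL- cells, and was 1.67-fold lower (log2 fold change -0.74, SE 0.18, adjusted p = 0.014). The arrays of the 2 groups did not overlap for either gene. Without replicate 1 or 2 of VHL+ cells under hypoxia the adjusted p of VEGFA was 0.233 and 0.111, and that of ADM was 0.256 and 0.156. The ADM call was also lost without replicate 2 of VHL- cells under hypoxia (adjusted p = 0.0649).

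EDN2, which encodes another endothelin peptide with affinity for both endothelin receptors, went the other way. Its log2 signal was 9.71 and 8.76 in VHL+ cells under hypoxia, against 6.98 and 7.51 in VHL- cells under hypoxia. The VHL+ replicates lay 0.95 apart, both well above every other array of the series, on which EDN2 lay between 6.98 and 7.51. EDN2 was 3.99-fold higher in VHL+ cells (log2 fold change 2.00, SE 0.23, adjusted p = 2.14e-05), and it stayed past the threshold in all 8 fits that left out 1 array and after quantile normalization.

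EDN1 no longer separated the groups. It gave 7.88 and 8.06 in VHL+ cells, against 7.34 and 8.14 in VHL- cells, which overlapped (log2 fold change 0.23, 95% interval -0.30 to 0.76, adjusted p = 0.586). NRP2 gave 9.35 and 9.52 in VHL+ cells, against 9.95 and 9.88 in VHL- cells. Its groups did not overlap but the main cluster missed the threshold (log2 fold change -0.48, adjusted p = 0.0705, and 0.041 after quantile normalization). The other NRP2 cluster passed it (log2 fold change -0.69, adjusted p = 0.0112), so that the call for NRP2 under hypoxia differed between its 2 clusters. VEGFC gave 8.06 and 8.12 in VHL+ cells, against 8.51 and 8.37 in VHL- cells (log2 fold change -0.35, adjusted p = 0.147), and VEGFB overlapped between the groups (log2 fold change -0.36, adjusted p = 0.248). In all, 4 of the 10 genes were lower in both VHL+ arrays and 2 were higher, where 4.81% of all clusters were lower and 46.4% higher in this way.

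The response to hypoxia was then compared within VHL+ and within VHL- cells. In VHL+ cells 3 of the 10 genes were higher under hypoxia, namely ADM, EDN2 and NRP2, and none was lower, where 0.15% of all clusters were called higher and 0.003% lower. A further 2, VEGFA and EDN1, had an unadjusted p under 0.05, which made 5 of the 10, beside 2052 of the 33297 clusters. The median log2 fold change of the 10 genes was 0.44, beside 0.09 over all clusters.

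ADM had a log2 signal of 9.03 and 8.95 under hypoxia, against 7.51 and 8.08 under normoxia in VHL+ cells, and was 2.29-fold higher (log2 fold change 1.19, SE 0.18, adjusted p = 0.00874). EDN2 gave 9.71 and 8.76 under hypoxia, against 7.38 and 7.11 under normoxia, and was 3.99-fold higher (log2 fold change 1.99, SE 0.23, adjusted p = 0.00077). NRP2 gave 9.35 and 9.52 under hypoxia, against 8.27 and 8.83 under normoxia, and was 1.84-fold higher (log2 fold change 0.88, SE 0.17, adjusted p = 0.0336). In all 3 genes both hypoxic arrays exceeded both normoxic arrays. The other NRP2 cluster rose as well (log2 fold change 0.94, adjusted p = 0.0225).

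EDN1 had the largest difference after EDN2 but was not called. It gave 7.88 and 8.06 under hypoxia, against 6.54 and 6.91 under normoxia in VHL+ cells, which did not overlap (log2 fold change 1.25, 95% interval 0.72 to 1.77, adjusted p = 0.0616, and 0.00182 with trend and robust). VEGFA gave 9.82 and 9.97 under hypoxia, against 8.86 and 9.54 under normoxia (log2 fold change 0.69, SE 0.20, adjusted p = 0.359). Both hypoxic arrays exceeded both normoxic arrays in 6 of the 10 genes and lay below them in 1, where 28% and 2.38% of all clusters did so. The 3 calls of this comparison depended on the arrays and their scaling. Without either VHL+ hypoxia array, and after quantile normalization, no gene of the 10 passed (adjusted p of 0.333 for ADM, 0.366 for EDN2 and 0.577 for NRP2 after quantile normalization), and NRP2 was also lost without replicate 1 of VHL+ cells under normoxia. Without any 1 of the VHL- arrays or replicate 2 of VHL+ cells under normoxia the count was 5, with VEGFA and EDN1 added.

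The 250 bases before the annotated starts of the genes that were higher or nearly so in hypoxic VHL+ cells were read to set the HIF letters beside the responses. They were taken from RefSeq on GRCh38.p14. Windows were read for 7 of the 10 genes, with 10 start sites between them. None was read for VEGFA, NRP1 and ANGPT1, which does not tell whether RefSeq lists their starts. Capitals mark ACGTG or GCGTG on either strand, so that CACGT and CACGC are the same letters read on the opposite strand. EDN1 is shown at the last of its 3 annotated starts.
ADM, chr11:10304823-10305072, plus strand: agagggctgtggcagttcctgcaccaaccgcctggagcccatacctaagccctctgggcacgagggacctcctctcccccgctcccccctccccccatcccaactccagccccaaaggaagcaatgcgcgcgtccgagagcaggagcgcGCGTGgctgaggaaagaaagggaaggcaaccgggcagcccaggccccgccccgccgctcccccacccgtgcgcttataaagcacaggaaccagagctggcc
EDN1, chr6:12290111-12290360, plus strand: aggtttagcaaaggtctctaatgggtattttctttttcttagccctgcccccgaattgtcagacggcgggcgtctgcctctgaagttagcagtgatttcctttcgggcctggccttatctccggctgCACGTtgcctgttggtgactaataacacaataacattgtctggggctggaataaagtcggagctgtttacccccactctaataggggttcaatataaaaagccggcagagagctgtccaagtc
EDN2, chr1:41484684-41484933, minus strand: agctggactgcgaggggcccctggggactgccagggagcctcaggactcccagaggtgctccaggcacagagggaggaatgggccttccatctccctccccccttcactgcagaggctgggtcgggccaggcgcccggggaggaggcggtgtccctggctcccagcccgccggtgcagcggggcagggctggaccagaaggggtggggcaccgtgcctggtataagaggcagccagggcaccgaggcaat
NRP2, chr2:205682251-205682500, plus strand: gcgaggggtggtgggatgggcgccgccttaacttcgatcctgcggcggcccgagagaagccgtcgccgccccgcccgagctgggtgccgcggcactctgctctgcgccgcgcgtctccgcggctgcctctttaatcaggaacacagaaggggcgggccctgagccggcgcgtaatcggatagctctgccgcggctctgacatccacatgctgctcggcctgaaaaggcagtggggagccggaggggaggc
ADM held a single GCGTG and EDN1 a single CACGT at this start, whereas the windows of EDN2 and NRP2 held none of these letters. Over 35116 windows of this length 18.5% held ACGTG and 32.2% held GCGTG, and 43.2% held at least 1 of them. The first EDN1 start had 3 matches and its middle start had none, VEGFB, VEGFC and the later of 2 PGF starts had 1 GCGTG each, and the earlier PGF start had none. A match is a description of these letters only.

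In VHL- cells none of the 10 genes passed the test between hypoxia and normoxia, where 0.0661% of all clusters were called (0.021% higher and 0.045% lower). None had an unadjusted p under 0.05 in limma either, beside 1765 of the 33297 clusters that did. A one-way test of the 2 groups alone called none of the 10 here or in any other comparison, so that it does not bear on a lack of response. VEGFA gave 11.11 and 10.73 under hypoxia, against 10.95 and 10.43 under normoxia, and its values overlapped (log2 fold change 0.23, 95% interval -0.20 to 0.66). ADM gave 9.49 and 9.96 under hypoxia, against 9.30 and 9.56 under normoxia, which also overlapped (log2 fold change 0.29, 95% interval -0.10 to 0.68). For NRP2, EDN2 and EDN1 the log2 fold changes were 0.10, 0.18 and 0.15. VEGFC gave 8.51 and 8.37 under hypoxia, against 8.88 and 8.61 under normoxia. This was the difference nearest to the threshold among the 10 (log2 fold change -0.31, 95% interval -0.61 to 3.9e-05, limma unadjusted p = 0.05003, adjusted p = 0.806). VEGFC, NRP1 and ANGPT1 were lower on both hypoxic arrays, as were 45.5% of all clusters, and none of the 10 was higher on both, as were 2.47% of all clusters.

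**Figure D2:**
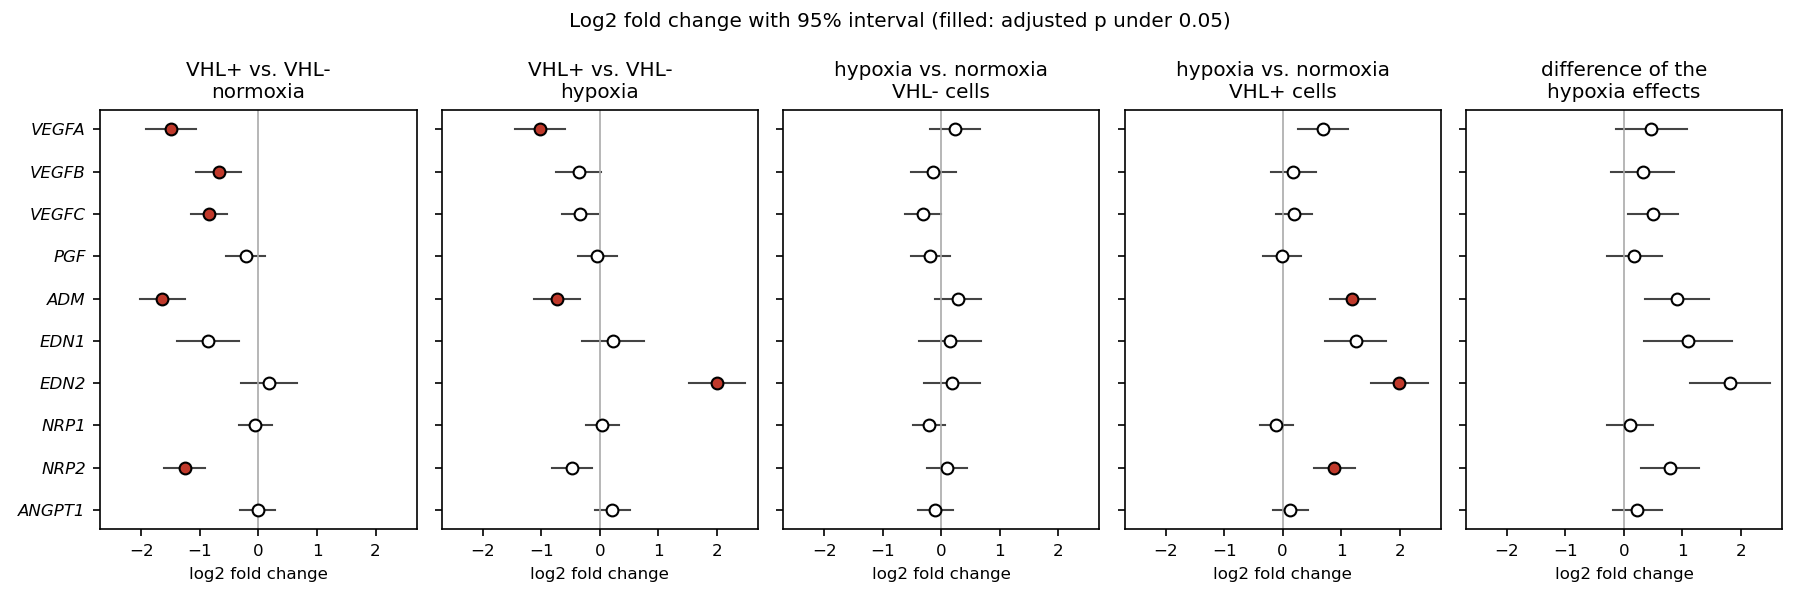
Log2 fold change (x axis) of the 10 genes (y axis) in each comparison, as a point with its 95% interval from limma, filled where the adjusted p was under 0.05. The last panel gives the hypoxia effect in VHL+ cells minus that in VHL- cells. Normoxic VHL+ cells show 5 filled points, all below 0, and EDN2 is the only filled point above 0 between VHL+ and VHL- cells under hypoxia.

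Whether the hypoxia response differed between VHL+ and VHL- cells was tested as an interaction. None of the 10 genes passed it (0.00601% of all clusters did), so that the calls in VHL+ cells alone do not by themselves show a difference. An unadjusted p under 0.05 in limma was seen for 5 of the 10 genes and for 1869 of the 33297 clusters. All 10 differences were above 0, as were those of 73 of the 80 genes in the lists described below. The median of the 10 was 0.48, beside 0.21 over all clusters. After quantile normalization, which removes this shift, PGF (-0.035) and NRP1 (-0.15) lay below 0. As deposited, EDN2 had the largest difference (log2 1.81, SE 0.32, adjusted p = 0.118). It passed in 6 of the 8 fits that left out 1 array, all but those without a VHL+ hypoxia array, and with trend and robust (adjusted p = 5.39e-10), but not after quantile normalization (adjusted p = 1). It was followed by EDN1 (1.10), ADM (0.90) and NRP2 (0.78), each with an adjusted p of 0.651. VEGFA, with 0.46, lay lower.

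A set of 3 genes was nearly level in the series. NRP1, the neuropilin co-receptor of VEGF-A, lay among the bright clusters of each array, with log2 signals of 9.81 and 9.90 in VHL+ cells under hypoxia, 9.92 and 10.00 in VHL+ cells under normoxia, 9.78 and 9.84 in VHL- cells under hypoxia, and 10.09 and 9.95 in VHL- cells under normoxia. Its log2 fold change with VHL was 0.04 under hypoxia and -0.06 under normoxia (95% interval -0.34 to 0.22), in contrast to NRP2. PGF, a ligand of FLT1, lay near the arrays' medians, between 6.63 and 7.20, and below its own array's median on 3 of 8 arrays. ANGPT1, the activating ligand of the receptor TEK, lay between 5.78 and 6.19 and below the median on all 8 arrays. For PGF and ANGPT1 the log2 fold changes in the 4 pairwise comparisons ran from -0.22 to 0.22, and none passed the test.

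Likeness over the 8 arrays was described by Pearson's r, without a test, since the points share their 4 groups and their scaling. NRP2 followed ADM (r = 0.96) and VEGFA (r = 0.96), and VEGFA and ADM had r = 0.89, while EDN2 was unlike each of them (r between -0.30 and -0.01). Among 11716 clusters with 1 symbol and a mean above the median, the genes most like VEGFA were PSME2 (r = 0.995), ST3GAL1 and MICA. Those most like ADM were IFNAR2 (r = 0.993), TMED10 and SLC39A14, and those most like NRP2 were TNFAIP3 (r = 0.994), PLGRKT and KCNMA1. VEGFC was most like RPL17 (r = 0.989), AFAP1L1 and CD63, and VEGFB was most like ZNF362 (r = 0.979), KANSL1 and BRINP1. EDN2, high on 2 arrays, was most like SH3GL1 (r = 0.988), CCDC102A and QTGAL.

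The receptors and processing enzymes of these factors and further vascular genes were read from 8 lists with 80 measured genes. Of these, 12 were higher and 5 lower in VHL+ than in VHL- cells under hypoxia, beside 10.3% and 1.31% of all clusters. Under normoxia 5 were higher and 7 lower, beside 2.07% and 2.69% of all clusters. Their median log2 fold change was 0.18 under hypoxia and -0.04 under normoxia, beside 0.16 and -0.04 over all clusters. After quantile normalization, which removes the shift of all clusters, 3 of these 12 higher genes (FURIN, THBS1 and HMOX2) and 4 of the 5 lower genes still passed under hypoxia, and 2 of the 5 higher and 4 of the 7 lower genes under normoxia. Between hypoxia and normoxia, the protease ADAMTS1 was lower under hypoxia in VHL- cells (log2 fold change -0.75, adjusted p = 0.0446, and lost without any 1 normoxic VHL- or hypoxic VHL+ array and after quantile normalization), and CXCL8 was higher in VHL+ cells. No gene of the lists passed the interaction, with 7 of the 80 at an unadjusted p under 0.05, beside 1869 of the 33297 clusters. For 40 of the 80 genes the signal lay below the median of every array, and for 31 it lay above. A median has as many clusters below it as above it, and the share of all clusters below every median was not computed.

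The VEGF receptors FLT1, KDR and FLT4 lay below the median on all 8 arrays, with log2 signals of 5.59 to 6.62, and none was called in any comparison (0 of 3 had an unadjusted p under 0.05). Of the 6 measured angiopoietins, TIE receptors and angiopoietin-like factors none was called, and 4 lay below every median. Among 10 genes of adrenomedullin processing and reception, the amidating enzyme PAM was higher in VHL+ cells under hypoxia (log2 fold change 0.73, adjusted p = 0.0113) and normoxia (0.72, adjusted p = 0.0211). The peptidase MME (neprilysin), which degrades vasoactive peptides, was lower under hypoxia (-0.99, adjusted p = 0.0197) and normoxia (-0.94, adjusted p = 0.0484). The calls of PAM and MME were lost without either VHL+ hypoxia array and after quantile normalization. That of PAM under normoxia was also lost without replicate 2 of either normoxia group, and that of MME without replicate 1 of the VHL- cells compared. CALCRL and RAMP2 lay below the median on all arrays, and RAMP1 and RAMP3 above it.

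Of 5 genes of endothelin processing and reception only FURIN, a protease that cuts endothelin precursors, was called. Its log2 signal was 8.52 and 8.42 in VHL+ cells under hypoxia, against 7.57 and 7.51 in VHL- cells under hypoxia, a 1.90-fold increase (log2 fold change 0.93, adjusted p = 0.000156) that was kept in all 8 fits without 1 array. The endothelin-converting enzyme ECE1 gave 11.36 and 11.34 under hypoxia, against 10.65 and 10.73 under normoxia in VHL+ cells, which did not overlap (log2 fold change 0.66, adjusted p = 0.272).

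Of 12 class 3 semaphorins and plexins, the ligands of the neuropilins and their partners, SEMA3A was higher in VHL+ cells under hypoxia (log2 fold change 0.71, adjusted p = 0.0267) and normoxia (0.86, adjusted p = 0.0155). SEMA3C was lower under hypoxia (-0.70, adjusted p = 0.0095) and normoxia (-0.66, adjusted p = 0.0242), and the plexin PLXNA3 was higher under hypoxia (0.59, adjusted p = 0.00923). Each of these calls was lost without either VHL+ hypoxia array, and all but that of SEMA3C under hypoxia were lost after quantile normalization, where PLXNA3 had a log2 fold change of 0.33. Under normoxia SEMA3A was also lost without replicate 2, and SEMA3C without replicate 1, of either normoxia group, and under hypoxia SEMA3C was lost without replicate 1 of VHL- cells.

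Among 15 other angiogenic growth factors the chemokine CXCL8 (interleukin 8) had the largest difference. Its log2 signal was 7.19 and 8.17 in VHL+ cells, against 10.92 and 11.16 in VHL- cells under normoxia, 10.3-fold lower (log2 fold change -3.36, SE 0.26, adjusted p = 2.09e-07). Under hypoxia it gave 9.26 and 9.79 in VHL+ cells, against 10.55 and 11.33 in VHL- cells (log2 fold change -1.42, adjusted p = 0.00187), and in VHL+ cells it was higher under hypoxia than under normoxia (log2 fold change 1.84, adjusted p = 0.00494). The matricellular factor CCN2 and the EGF receptor ligand HBEGF were higher in VHL+ cells in both conditions, with log2 fold changes of 0.94 and 1.97 under hypoxia and 1.56 and 1.02 under normoxia. After quantile normalization HBEGF passed in neither condition (adjusted p = 0.0643 under hypoxia and 0.248 under normoxia) and CCN2 did not pass under hypoxia (0.263). Under hypoxia 3 more factors were called higher, CCN1 (log2 fold change 1.08, adjusted p = 0.0297), PDGFB and FGF1, and each was lost after quantile normalization. PDGFA and APLN were lower under normoxia (-0.61 and -0.58), and under hypoxia their differences did not pass. The calls of CXCL8 and CCN2 under normoxia were kept in all 8 fits without 1 array, and those of CXCL8 under hypoxia and in VHL+ cells were lost without either VHL+ hypoxia array, the one in VHL+ cells also after quantile normalization. The same 2 omissions removed the calls of HBEGF, PDGFA, APLN, CCN1, PDGFB and FGF1, and the first of them removed that of CCN2 under hypoxia. CCN1 and FGF1 were also lost without replicate 1 of VHL- cells under hypoxia. HBEGF under normoxia was also lost without replicate 2 of VHL+ cells, PDGFA without VHL+ replicate 1 or VHL- replicate 2, and APLN without any 1 normoxic array.

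THBS1 (thrombospondin 1) was the only 1 of 11 angiogenesis inhibitors that was called with VHL. It gave 12.45 and 12.88 in VHL+ cells, against 11.33 and 11.44 in VHL- cells under hypoxia, and 12.34 and 12.70 in VHL+ cells, against 11.50 and 11.55 in VHL- cells under normoxia. THBS1 was 2.43-fold higher under hypoxia (log2 fold change 1.28, adjusted p = 5.17e-05) and 1.99-fold higher under normoxia (0.99, adjusted p = 0.000863), in all fits without 1 array. Among 18 further vasoactive genes, prostacyclin synthase PTGIS was lower in VHL+ cells under hypoxia (log2 fold change -1.36, adjusted p = 0.000123) and normoxia (-1.49, adjusted p = 5.9e-05). The cyclooxygenase PTGS2 was lower under normoxia (-0.96, adjusted p = 0.0343), PTGS1 was lower under hypoxia (-0.51), and HMOX2 (0.87) and the angiotensin precursor AGT (0.58) were higher under hypoxia. The calls of PTGIS and AGT under hypoxia, PTGS1 and PTGS2 were lost without either VHL+ hypoxia array and that of HMOX2 without replicate 1 of them. PTGS1 and AGT were also lost without replicate 1 of VHL- cells under hypoxia, and PTGS2 without replicate 2 of VHL- cells under normoxia. After quantile normalization AGT (adjusted p = 0.274) and PTGS2 (0.221) did not pass.

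**Figure D3:**
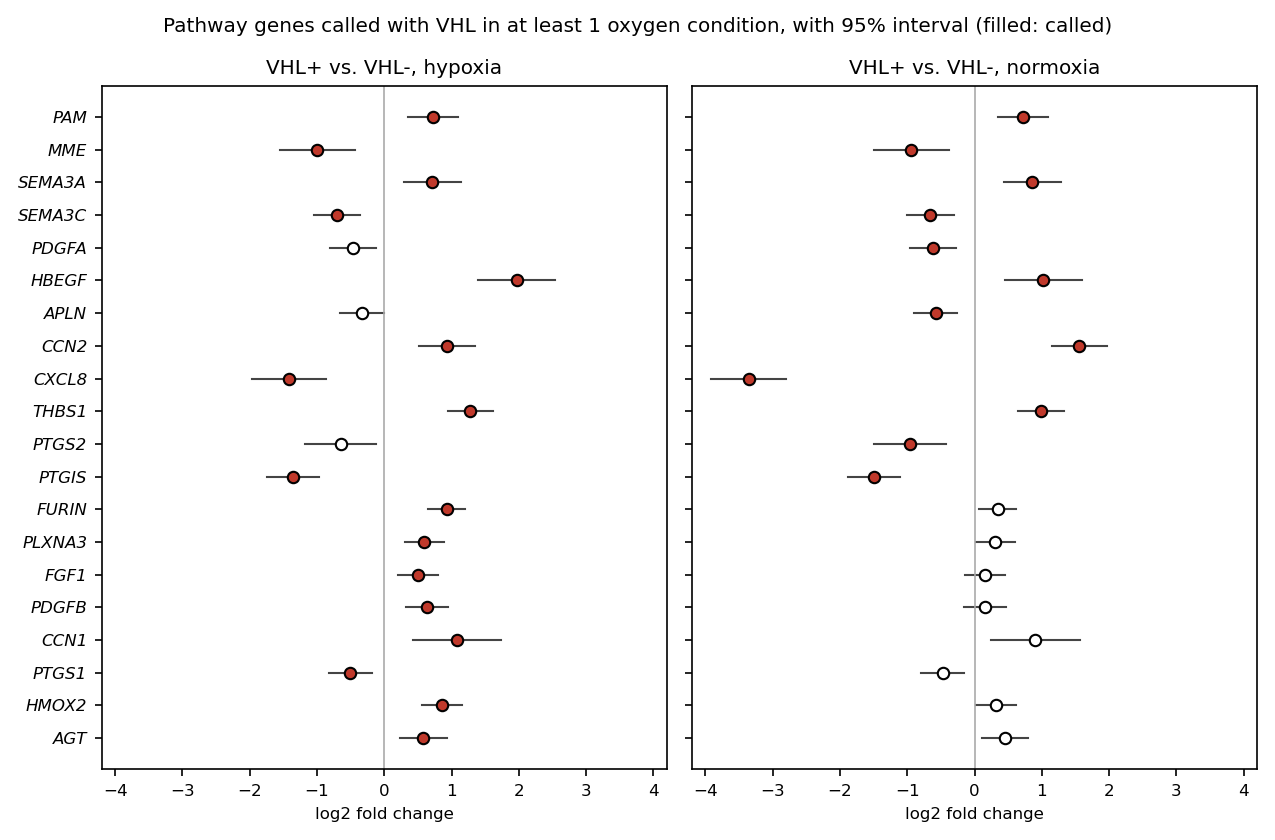
Log2 fold change (x axis) of VHL+ vs. VHL- cells under hypoxia (left) and normoxia (right) for the pathway genes called in at least 1 of the 2 conditions (y axis), with the 95% interval from limma, filled where called. CXCL8 under normoxia lies farthest from 0, at -3.36, and THBS1, CCN2, HBEGF, PAM and SEMA3A lie above 0 in both panels.

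The calls for the 10 genes rested on the arrays to different degrees. The EDN2 difference under hypoxia and the VEGFC, ADM and NRP2 differences under normoxia were past the threshold whichever array was left out. The other calls were not, namely VEGFA with VHL in both oxygen conditions, VEGFB, ADM with VHL under hypoxia and the 3 hypoxia calls in VHL+ cells. With the compared groups fitted alone, the VEGFC and NRP2 calls under normoxia were lost as well. After median centring, limma no longer called VEGFA (adjusted p = 0.0566) or ADM (0.0535) with VHL under hypoxia, whereas EDN2 was kept (0.0189). Quantile normalization kept VEGFA (log2 fold change -1.27, limma adjusted p = 0.0359) and ADM (-1.01, adjusted p = 0.0163) in that comparison. A one-way test was also run within each pair of groups, with 2 arrays against 2, at the unadjusted threshold of 0.005 that the methods name for theirs. It called none of the 10 genes in any comparison, and the methods do not say which arrays entered their test.

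**Figure D4:**
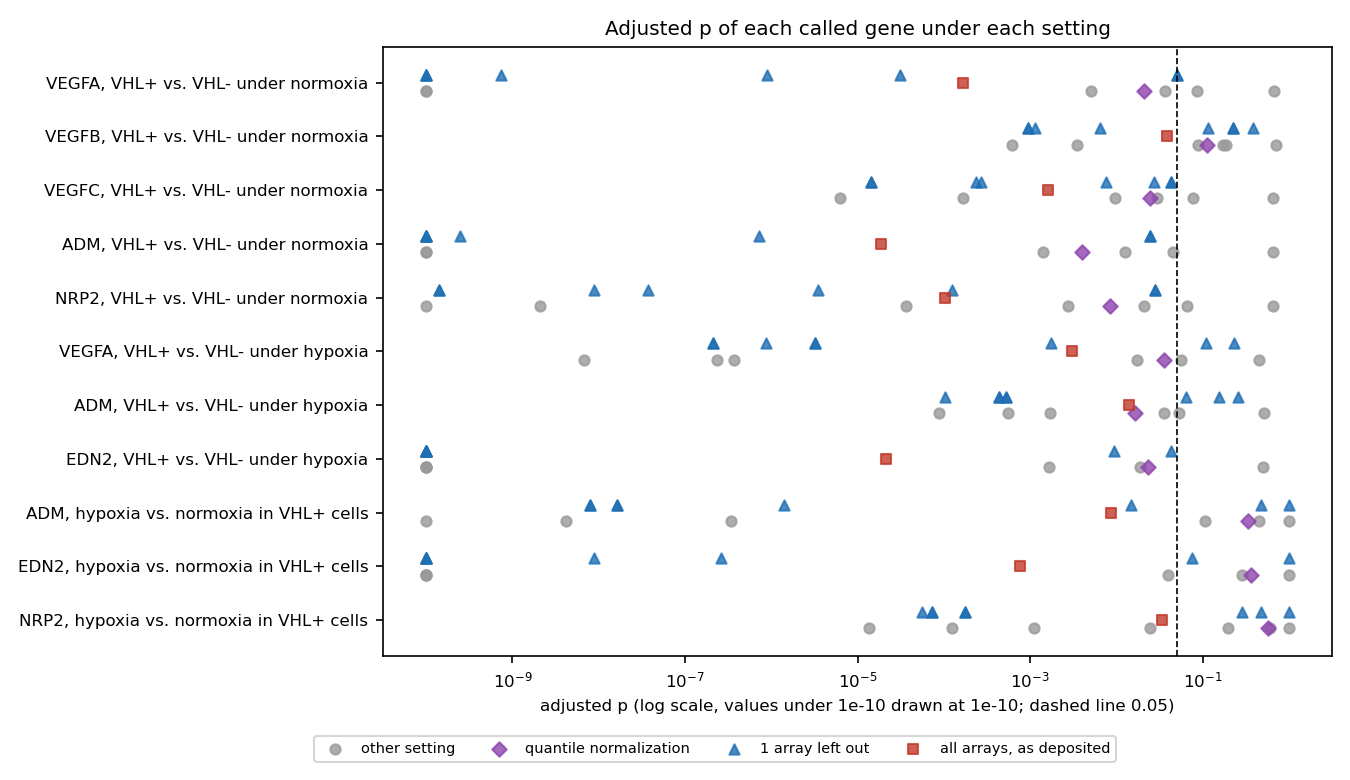
Adjusted p (x axis, log scale, dashed line at 0.05) of each call among the 10 genes (y axis) with all arrays as deposited (red squares), with 1 array left out (blue triangles), after quantile normalization (purple diamonds) and under the other settings tried (grey circles). The diamonds of the 3 hypoxia calls in VHL+ cells lie to the right of the line, and those of VEGFC, ADM and NRP2 under normoxia lie to its left.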

How the data were processed

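Total RNA of 786-O cells was measured on 8 Affymetrix Human Gene 1.0 ST arrays. According to the study's methods the authors summarized the arrays by RMA (as usually run, background correction, quantile normalization and median polish) in Partek, whose version is not given in the sources used here. The deposited values are log2 signals of 33297 transcript clusters, from 4.81 to 14.0. The array annotation gave 1 gene symbol to 19460 clusters, several to 1754 and none here to 12083. The values were used without change. They still differed in median between arrays, and the number of arrays, 2 per group, limits the precision. Replicates had a Pearson correlation across clusters of 0.991 to 0.994.

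limma 3.58.1 in R 4.3.3 fitted 1 mean per group over all arrays (4 residual and 14.0 prior degrees of freedom), and p-values were adjusted by Benjamini-Hochberg over all clusters, with a threshold of 0.05 and two-sided tests. With 2 replicates per group a permutation of labels cannot reach this threshold in a single comparison. The labels call the samples biological replicates, and no source used here says whether the cultures were independent. Members and lists were chosen with earlier results of these data known. The text names the 10 genes, VHL as a check of the labels, and HIF1A and EPAS1 beside it. It also names up to 4 called genes per list and comparison, taken by size. APLN, PDGFB and FGF1, called but smaller than the 4 of their list, were added after their values were seen. In a list without a call the rule gave 2 genes by p, some of which are covered by counts alone. Alternatives were quantile normalization, median centring, limma with trend and robust, the replicate block, dim clusters left out, the compared groups alone, a one-way test of each pair of groups (the methods name a one-way ANOVA without the arrays in it), limma at the methods' unadjusted 0.005, and each array left out.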

Additional observations from a re-analysis of the deposited data

Results flagged for a closer look

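VEGFC lay on opposite sides of normoxia in hypoxic VHL+ and VHL- cells. Both hypoxic arrays lay above both normoxic arrays in VHL+ cells (log2 fold change 0.19, adjusted p = 0.935) and below them in VHL- cells (-0.31, adjusted p = 0.806), and neither difference passed the test. Of all clusters, 28% lay above in this way in VHL+ cells and 45.5% lay below in VHL- cells. The difference of the effects, 0.49 on the log2 scale, was tested as the interaction in limma and did not pass (adjusted p = 0.651). After quantile normalization the VHL+ value was 0.028 and the VHL- value -0.21.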

How the results depend on the processing

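With 2 arrays per group, each call rests on 4 arrays and a spread shared over groups. Of 820 values of the 10 genes under alternatives, 679 kept direction and side of the threshold, 57 lost the call, 55 gained one and 29 changed sign, none of them from a called value. The cause of these differences was not tested. All clusters called numbered 1587, 3873, 22, 51 and 2 in the comparisons of VHL under normoxia, VHL under hypoxia, hypoxia in VHL- cells, hypoxia in VHL+ cells and their difference, and genes called among the 10 numbered 5, 3, 0, 3 and 0. With 1 array left out, the clusters ranged from 473 to 2551, 256 to 5090, 2 to 282, 0 to 354 and 0 to 203, and the genes from 3 to 6, 1 to 4, 0 to 0, 0 to 5 and 0 to 4. For VHL under normoxia, 1038 clusters were called with dim clusters left out, 250 with the compared groups alone (1 gene of the 10), and 288 and 1 by the one-way test of the pair unadjusted and adjusted (0 genes). For VHL under hypoxia, 1831 clusters were called after quantile normalization, 1423 after median centring (1 gene), and 400 and 1 by the one-way test (0 genes). For hypoxia in VHL- cells there were 0 after quantile normalization, median centring, the compared groups alone or the adjusted one-way test, 220 with trend and robust, 2 without dim clusters, 253 by the one-way test and 312 by limma at the unadjusted 0.005. For hypoxia in VHL+ cells there were 1 after quantile normalization and 1 after median centring (0 genes), 182 with trend and robust (5 genes), 8 without dim clusters (1 gene), 228 with the compared groups alone (5 genes), 121 and 0 by the one-way test (0 genes), and 382 by limma unadjusted (5 genes). For the difference of the hypoxia effects there were 0 after quantile normalization, median centring or without dim clusters, 89 with trend and robust (1 gene) and 183 by limma unadjusted (3 genes). Of the pathway genes, 6, 10, 0 and 0 were called after quantile normalization in the 4 pairwise comparisons, against 12, 17, 1 and 1.

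With the replicate block the clusters called were 2518, 4990, 220, 336 and 98, and EDN1 under normoxia passed (adjusted p = 2.87e-06), as did NRP2 with VHL under hypoxia (0.0219), VEGFA (0.003) and EDN1 (6.83e-12) with hypoxia in VHL+ cells (5 genes), and ADM, EDN1 and EDN2 in the difference (3 genes). The labels do not say that a replicate number marks a shared batch, and deviations of same-numbered arrays correlated between 0.050 and 0.60 over pairs of groups, so that the block was not used for the main values.

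The sign changes concerned values without a call. After quantile normalization, ANGPT1 with VHL under normoxia was 0.035, EDN1 with VHL under hypoxia was -0.013, NRP1 with VHL under hypoxia was -0.22, ANGPT1 with hypoxia in VHL- cells was 0.036, PGF in the difference of the hypoxia effects was -0.035 and NRP1 in the difference of the hypoxia effects was -0.15. After median centring, ANGPT1 with VHL under normoxia was 0.036, NRP1 with VHL under hypoxia was -0.13, ANGPT1 with hypoxia in VHL- cells was 0.016, PGF in the difference of the hypoxia effects was -0.050 and NRP1 in the difference of the hypoxia effects was -0.13. With 1 array left out, the log2 fold changes ranged with VHL under normoxia for NRP1 from -0.13 to 0.015 and ANGPT1 from -0.082 to 0.051, with VHL under hypoxia for PGF from -0.18 to 0.088, EDN1 from -0.17 to 0.63 and NRP1 from -0.0011 to 0.086, with hypoxia in VHL- cells for VEGFA from -0.033 to 0.49, VEGFB from -0.40 to 0.13, PGF from -0.40 to 0.028, EDN1 from -0.31 to 0.61 and EDN2 from -0.083 to 0.45, with hypoxia in VHL+ cells for PGF from -0.14 to 0.12 and ANGPT1 from -0.0099 to 0.28, and in the difference of the hypoxia effects for PGF from -0.036 to 0.39.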

Other observations

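EDN1 gave a higher log2 signal on replicate 2 than on replicate 1 in each of the 4 groups, with 8.06 against 7.88 in VHL+ cells under hypoxia, 6.91 against 6.54 in VHL+ cells under normoxia, 8.14 against 7.34 in VHL- cells under hypoxia and 8.05 against 7.13 in VHL- cells under normoxia. ANGPTL4, an angiopoietin-like factor, gave the reverse in each group, with 7.47 against 8.82, 6.65 against 7.55, 7.09 against 8.59 and 6.53 against 8.22 in the same order. These are values of replicates, and a cause was not tested.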
